A study of Mus musculus with 2 samples.

Results

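Desmin (Des), vimentin (Vim), nestin (Nes), synemin (Synm) and syncoilin (Sync) are 5 genes of the type III and type IV classes of cytoplasmic intermediate filament proteins or close relatives of them. They were taken as those probe sets of the array that its annotation assigns to 1 of these symbols and to no other gene. Each of the 5 had a single probe set (10347583 for Des, 10469322 for Vim, 10493114 for Nes, 10564482 for Synm and 10508436 for Sync), out of 19938 genes with a probe set of their own. Their signal was compared in the lower jaw of the mouse fetus at E18.5, an embryonic day shortly before birth. 1 array was made from wild-type mandible on the BALB/c background and 1 from mandible of the same background and age that was null for both Myf5 and MyoD, here called the double knockout. Both genes encode the transcription factors that start skeletal muscle differentiation, so the comparison asks what the jaw lacks when skeletal muscle does not form. The sources used here do not say whether each RNA sample came from 1 fetus or a pool.

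Intermediate filaments are rope-like polymers that carry mechanical load across a cell. Desmin is the main intermediate filament protein of muscle, where it surrounds the Z-discs and ties neighbouring myofibrils to each other, to the nuclei and to the cell membrane; smooth muscle and pericytes make it too. Vimentin is its close relative in fibroblasts, endothelium, cartilage and bone cells and macrophages, and in myoblasts it precedes desmin. Nestin and synemin do not build filaments alone but join those of desmin or vimentin, and nestin is known from neural and muscle progenitors, growing vessels and the ends and nerve contacts of muscle fibres. Syncoilin is found chiefly in muscle and links desmin to alpha-dystrobrevin of the dystrophin complex.

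Myf5 and MyoD bind the E-box, the motif CANNTG, so the promoter sequences of the genes with the greatest and the least differences are shown with each E-box in capitals. They are the 250 bases before the annotated start, 5′ to 3′ on the gene's strand, from RefSeq's GRCm38.p6 assembly. The Des window lies at chr1:75360042-75360291 (plus strand), the Sync window at chr4:129287371-129287620 (plus strand) and the Vim window at chr2:13574061-13574310 (plus strand).
Des: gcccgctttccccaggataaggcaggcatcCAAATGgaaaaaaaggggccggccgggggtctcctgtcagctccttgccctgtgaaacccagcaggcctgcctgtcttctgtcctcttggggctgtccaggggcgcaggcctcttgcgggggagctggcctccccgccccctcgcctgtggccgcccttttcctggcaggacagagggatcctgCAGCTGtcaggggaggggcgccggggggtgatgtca
Sync: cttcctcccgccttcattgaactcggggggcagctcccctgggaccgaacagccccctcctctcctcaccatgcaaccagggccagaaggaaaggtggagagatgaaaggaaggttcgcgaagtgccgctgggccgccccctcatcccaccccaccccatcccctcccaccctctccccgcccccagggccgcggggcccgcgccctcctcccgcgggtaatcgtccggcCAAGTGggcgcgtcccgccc
Vim: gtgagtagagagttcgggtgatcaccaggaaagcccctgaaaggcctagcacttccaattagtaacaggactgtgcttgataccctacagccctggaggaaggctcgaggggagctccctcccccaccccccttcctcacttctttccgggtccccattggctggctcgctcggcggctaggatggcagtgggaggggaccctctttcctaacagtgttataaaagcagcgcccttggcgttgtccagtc

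The Des window held 2 E-boxes, CAAATG starting 220 bases before the start and CAGCTG starting 36 bases before it. The Sync window held 1, CAAGTG, 20 bases before the start, and the Synm window held 1, CACGTG, 193 bases before it. The windows of Vim and Nes held 0. E-boxes are common in windows of this length: 66.2% of 32536 distinct mouse promoter windows held at least 1 and 31.7% held 2 or more, while CAGCTG was found in 13.1% of them. CANNTG and CAGCTG read the same on both strands as patterns, so 1 search covers both, and every CAGCTG is also counted as a CANNTG. The Vim window held the motif TATAAA once, 32 bases before the start, as did 12.3% of windows on either strand in at least 1 copy. These letters describe a short window only and do not show what binds there.

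The arrays give a log2 signal for each probe set, the brightness of its probes, and no detection call. The median signal over annotated probe sets therefore served as a floor (6.18 for wild type, 6.19 for the double knockout), and values under it were raised to it. A gene above the floor on at least 1 array was counted as measured, which held for 10393 genes. A difference with 1 array at the floor is a bound and is written as "at least". With 1 array per genotype there is no replicate and no test; the only spread available, that between the differences of a gene's 2 brightest probe sets, had an SD of 0.23 log2 units over 532 genes and leaves out variation between animals. Over all measured genes the median difference, double knockout minus wild type, was 0.098. The targeted genes read lower in the double knockout: Myf5 gave a log2 signal of 6.31 in wild type and 4.95, under the floor, in the double knockout, and Myod1 gave 7.14 and 6.49. Myf5 lay only a little above the floor in wild type. Because its double-knockout value was under the floor, its difference is only a bound, at least 1.09-fold lower. Myod1 was 1.58-fold lower and above the floor on both arrays. The sources used here do not say where their probes lie relative to the deleted parts. The arrays also differed in transcripts of the sex chromosomes: the Y-linked Eif2s3y gave 2.38 in wild type and 6.55 in the double knockout, and Xist 10.87 and 10.22; both genes were picked with their values known. The part of sex in the differences described here was not tested.

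All 5 genes were measured. In the double knockout 3 of 5, Des, Sync and Nes, were lower by 2-fold or more, beside 2.73% of all measured genes (284). At least 2-fold higher were 0 of 5, beside 0.510% of measured genes (53). Sync and Synm passed the floor only through the wild-type array and so could only differ downwards.

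**Figure D1:**
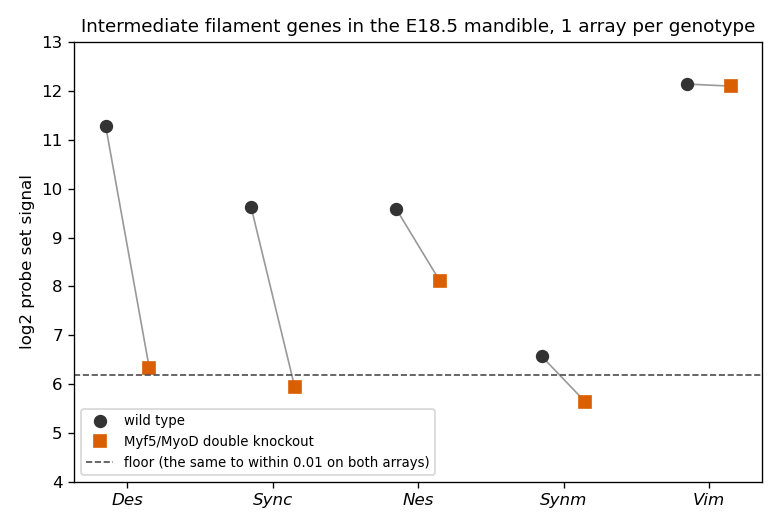
Log2 probe set signal (vertical axis) of each of the 5 genes (horizontal axis) in wild type (circles) and in the double knockout (squares), joined by a line, with the floor as a dashed line. Des stands at 11.28 and 6.33, the latter just above the floor, while Vim stands at 12.15 and 12.10.

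Des gave a log2 signal of 11.28 in wild type and 6.33 in the double knockout. This difference of -4.96 log2 units is a 31.1-fold lower signal, or 3.22% of the wild-type signal. Among the 9468 genes above the floor on both arrays, Des ranked 2 from the lowest difference. Genes that ended under the floor are not in that ranking: 10 of them, all of the skeletal muscle list, had bounds beyond the difference of Des, up to at least 77.8-fold lower for Actc1. The double-knockout value lay only a little above the floor of 6.19, so little desmin signal remained over it. That floor is a median signal and not a limit of detection. In a bulk sample of this kind, fewer cells of a type and less RNA per cell cannot be told apart.

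Vim, by contrast, gave 12.15 in wild type and 12.10 in the double knockout. Its difference of -0.04 (1.03-fold, or 97.1% of wild type) was smaller than the SD between probe sets. It became -0.14 after centring, in which the median over all measured genes is taken as 0, and -0.08 after quantile normalization. The differences of Des and Vim, each measured on the same 2 arrays, lay far apart (Des minus Vim -4.92 log2 units, a 30.2-fold change in their ratio), which a common shift of all genes would leave as it is.

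Sync differed in the same direction as Des. It gave 9.63 in wild type and 5.94 in the double knockout, where it was under the floor. Its signal was at least 10.9-fold lower (-3.44 log2 units after flooring), and the deposited values differed by -3.68. Syncoilin signal was thus clearly present on one array and not above the floor on the other.

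Nes gave 9.58 in wild type and 8.10 in the double knockout. This difference of -1.48 is a 2.78-fold lower signal, and 36.0% of the wild-type signal remained, well above the floor. Nes ranked 72 from the lowest among the 9468 genes above the floor on both arrays. Its difference lay between that of Des (Des minus Nes -3.48 log2 units) and that of Vim (Vim minus Nes 1.43), both more than the SD between probe sets.

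Synm gave 6.56 in wild type, a little above the floor, and 5.63 in the double knockout, under it. The bound was at least 1.30-fold lower (-0.38 on the log2 scale), and the deposited values differed by -0.93. Synemin therefore began too close to the floor for a 2-fold difference to be seen above it.

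**Figure D2:**
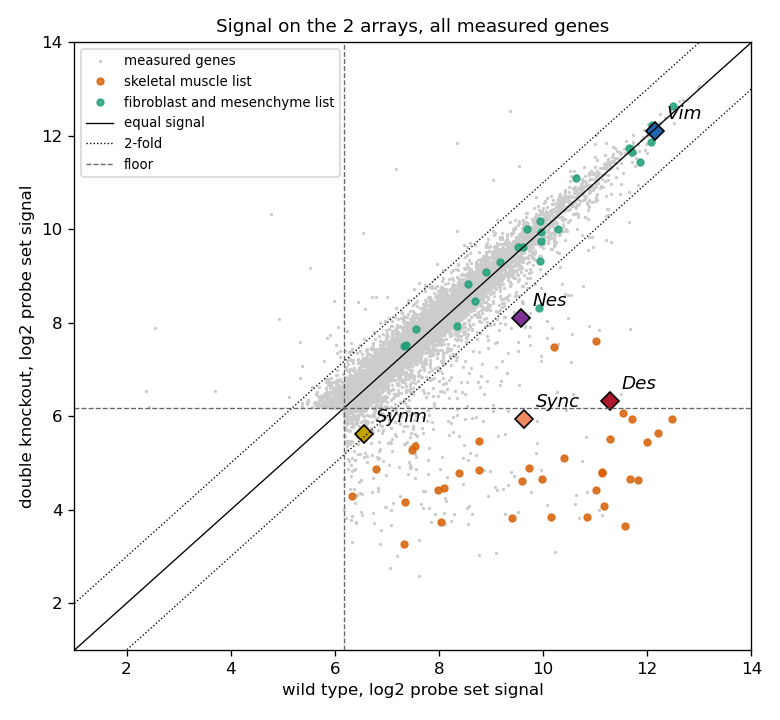
Log2 signal on the wild-type array (horizontal) against the double-knockout array (vertical) for the 10393 measured genes (grey), with the skeletal muscle list in orange, the fibroblast and mesenchyme list in green and the 5 intermediate filament genes as diamonds; the solid line marks equal signal, dotted lines 2-fold and dashed lines the floors. Des and Sync lie near the floor of the double-knockout array with the muscle genes, Nes lies between, and Vim lies on the line of equal signal among the mesenchyme genes.

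Among the 9468 genes above the floor on both arrays, those with the pair of values most like that of Des were sought by Euclidean distance over the 2 arrays, a likeness that rests on 2 points. Muscle genes under the floor of the double knockout did not enter this search. Pygm, the glycogen phosphorylase of muscle, was nearest (11.50 in wild type and 6.48 in the double knockout, distance 0.269). Next came the Z-disc LIM protein gene Pdlim3 (10.58 and 6.47), Cap2, an actin regulator (10.26 and 6.52), Mustn1 (10.54 and 7.15) and the tropomyosin gene Tpm2 (11.01 and 7.61). These 5 were 10.5-fold to 32.4-fold lower in the double knockout, a range that follows from choosing them for values like those of Des. In the same search the nearest to Vim were the ribosomal protein gene Rps15 (12.15 and 12.15, distance 0.045), the constitutive chaperone gene Hspa8 (12.08 and 12.08), the ferritin heavy chain gene Fth1 (12.07 and 12.09), and the ribosomal protein genes Rpl19 (12.05 and 12.08) and Rpl41 (12.08 and 12.20).

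The rest of the family was examined next. Of the 6 other type III and type IV genes, those of neurons and glia, 5 stayed under both floors: the glial Gfap (3.60 and 3.74), the neurofilament genes Nefl (5.82 and 6.05), Nefm (3.39 and 3.41) and Nefh (5.45 and 5.36), and Ina (5.46 and 5.602). Peripherin, Prph, a filament protein of peripheral neurons, was the 1 measured gene, at 6.08 in wild type and 6.60 in the double knockout, at least 1.34-fold higher. The neuron list beside it had 4 measured genes of 9, with a median difference of 0.34. Its members were Tubb3 (6.16 and 6.67), Stmn2 (7.69 and 8.13), Map2 (7.01 and 7.26) and, lower in the double knockout, Dcx (7.02 and 5.43). The part of nerve tissue in the Prph difference was not tested.

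Lamins, the type V filaments of the nucleus, were less than 2-fold apart. Lmna, the lamin gene of differentiated cells, gave 9.17 in wild type and 8.73 in the double knockout (-0.44). Lmnb2 gave 6.97 and 6.71 (-0.26), Lmnb1 8.30 and 8.52 (0.22) and the lamin B receptor gene Lbr 8.40 and 8.53 (0.13). The 2 lower and 2 higher genes kept their direction after centring and after quantile normalization. The differences of the 2 higher genes, Lmnb1 and Lbr, were smaller than the SD between probe sets.

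Keratins of simple epithelia form filaments as pairs of a type I and a type II protein. They read higher in the double knockout in 4 of 4 genes, also under both other scalings. The median difference of all measured genes was 0.098. At least 2-fold higher was 1 of 4, beside 0.510% of all measured genes. Krt18 gave 7.97 in wild type and 9.26 in the double knockout (2.46-fold higher), and its partner Krt8 gave 9.03 and 9.96 (1.90-fold). Krt7 gave 8.71 and 9.30 (1.504-fold) and Krt19 7.15 and 7.31 (1.12-fold). The Krt19 difference of 0.16 was smaller than the SD between probe sets. Genes of glandular epithelium, chosen after their values were seen, were higher on the same array: the salivary water channel Aqp5 gave 6.59 and 8.29, the secreted protein gene Pip 7.17 and 11.30, and the epithelial adhesion gene Epcam 7.21 and 8.08. Their part in the keratin differences was not tested.

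**Figure D3:**
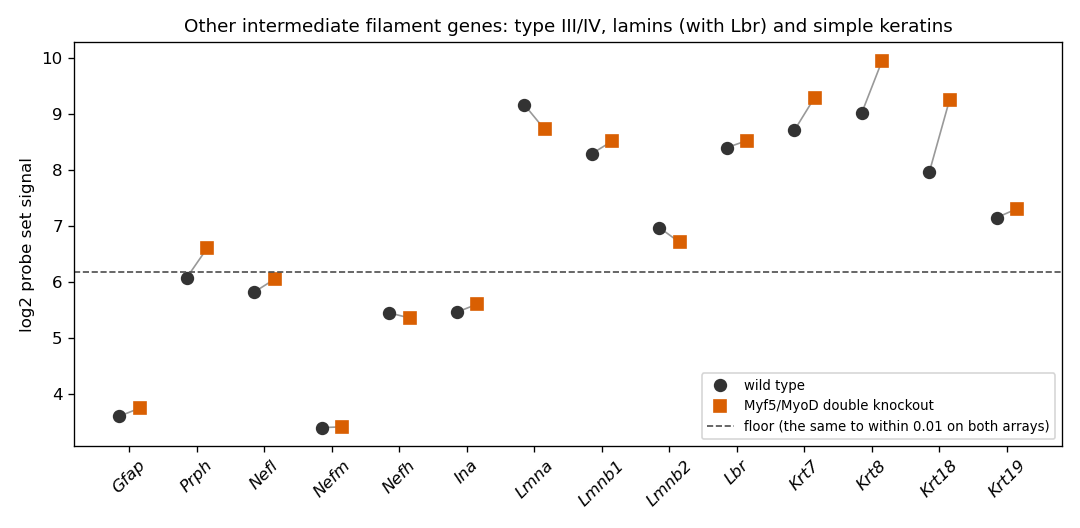
Log2 probe set signal (vertical axis) of 14 further intermediate filament and lamina genes (horizontal axis) in wild type (circles) and double knockout (squares), with the floor as a dashed line. Neuronal and glial genes lie near or under the floor, lamins are less than 2-fold apart, and Krt8 and Krt18 stand higher in the double knockout.

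The proteins that anchor these filaments were given by a list of 26 genes, of which 23 were measured. In the double knockout 7 were at least 2-fold lower, beside 2.73% of all measured genes, and 0 at least 2-fold higher, beside 0.510%. The other 16 were neither, and the list median was -0.27. Of the 7, 5 passed the floor only through the wild-type array and so could only differ downwards. Neb, the nebulin that spans the thin filament and meets desmin at the Z-disc, was at least 29.4-fold lower (11.07 in wild type and a deposited 4.001 in the double knockout). Flnc, the filamin gene of muscle, was 6.92-fold lower (10.56 and 7.77), Nrap, a scaffold of forming myofibrils, at least 6.38-fold (8.86 and 4.85), and Dtna, the alpha-dystrobrevin that syncoilin binds, at least 3.21-fold (7.87 and 5.88). The 3 others, named after their values were seen, were the ankyrin gene Ank2 (2.18-fold), the spectrin gene Sptb (at least 2.10-fold) and dystrophin, Dmd (at least 2.07-fold).

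The 16 other linkers were less than 2-fold apart. The brightest of the list by the mean of both log2 values were the desmosome genes Jup (9.94 in wild type and 10.07 in the double knockout) and Dsp (9.67 and 10.06), through which keratin or desmin filaments attach at cell junctions. Plectin and utrophin were named after their values were seen. Plec, the general linker of intermediate filaments, gave 8.09 and 7.55, 1.45-fold lower, and Utrn, the relative of dystrophin, gave 8.55 on both arrays.

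Chaperones and turnover factors of the filaments made a list of 17 genes, with 12 measured, 3 under both floors and 2 without a probe set of their own. At least 2-fold lower were 6 of the 12, all of them small heat shock protein genes, beside 2.73% of all measured genes. At least 2-fold higher were 0, beside 0.510%. Of the 6, 2 passed the floor only through the wild-type array and so could only differ downwards. The median was -0.95, or -0.38 without a floor. Hspb7 was at least 10.8-fold lower (9.61 in wild type and a deposited 5.94 in the double knockout). Cryab, the desmin chaperone alpha-B crystallin, was 4.13-fold lower (10.07 and 8.03), Hspb1 3.92-fold (10.77 and 8.80, with both of its probe sets at -1.97) and Hspb8 3.33-fold (9.66 and 7.92). The sources used here do not say whether the 2 Hspb1 probe sets share probes, so they may not be independent readings. Hspb6 (3.31-fold) and Hspb2 (at least 2.86-fold), the others of the 6, were named after their values were seen. Vcp, a segregase of every cell and the brightest gene of the rest, gave 9.64 and 9.67.

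To place the members beside the cells that make them, marker lists of the tissues of the jaw were described in the same way. All 34 skeletal muscle genes were above the floor in wild type and 2 of them, Tpm2 and Actn3, in the double knockout. At least 2-fold lower were 32, 30 of them as bounds, and 0 were at least 2-fold higher, beside 2.73% and 0.510% of all measured genes. All but Tpm2 and Actn3 passed the floor only through the wild-type array and so could only differ downwards. The median of -3.66 is therefore largely one of bounds, and lower floors gave other values: -4.40 for the median over all probe sets as floor, -5.25 for the 25th percentile and -5.30 without a floor. The summed linear signal of the list, with values under the floor raised to it, was at most 0.048 times that in wild type. The actins Actc1 (12.47 and 5.94) and Acta1 (12.20 and 5.64), the troponin T gene Tnnt3 (12.00 and 5.45) and the calcium pump gene Atp2a1 (11.82 and 4.64) had the largest bounds, whose order is that of their wild-type signal. The median of the 5 intermediate filament genes was -1.48, that of all measured genes 0.098.

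Smooth muscle and pericytes also make desmin, and their markers were still read in the double knockout. Of 15 genes, 13 exceeded both floors and 0 were at least 2-fold apart, with a median of -0.04 and a summed linear signal, floored alike, of 0.804 times that in wild type. The smooth muscle actins Acta2 (11.21 in wild type and 10.28 in the double knockout) and Actg2 (7.18 and 6.45) were 1.91-fold and 1.65-fold lower. The pericyte receptor gene Pdgfrb (8.91 and 9.51) and the myosin kinase gene Mylk (7.55 and 8.13) were 1.51-fold and 1.498-fold higher. The part of these cells in the desmin signal that remained was not tested.

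The list of fibroblasts and mesenchyme, which make vimentin, had 24 measured genes of 26, all above the floor on both arrays. Of these, 1 was at least 2-fold lower and 0 higher, beside 2.73% and 0.510% of all measured genes. The median was 0.09, or -0.01 after centring. The summed linear signal was 0.985 times that in wild type. The brightest, the collagens Col1a1 (12.50 and 12.63) and Col1a2 (12.10 and 12.24), differed by less than the SD between probe sets. Dpt, a matrix protein gene of connective tissue, was the exception at 3.07-fold lower (9.93 and 8.31). Col6a1 was 1.52-fold lower (9.93 and 9.32), Postn 1.34-fold lower (11.87 and 11.44), and the mesenchymal cadherin gene Cdh11 1.39-fold higher (10.63 and 11.10).

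Other cells that make vimentin were represented as well. The cartilage and bone list had 7 measured genes of 12, with 0 at least 2-fold apart and a median of 0.40; its largest difference was that of the cartilage regulator Sox9 (8.37 in wild type and 9.13 in the double knockout), and its brightest gene, Ibsp, gave 12.24 and 12.46. The macrophage list had 7 measured of 10, with 0 at least 2-fold apart and a median of -0.39, and held genes in both directions, such as Cd68 (8.94 and 9.80) and C1qc (7.63 and 6.999). Vim differed by -0.04 beside these differences of either sign.

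Nestin is made outside muscle by growing vessels and by Schwann cells. The endothelial list had 13 of 14 genes above the floor on both arrays, 0 at least 2-fold apart and a median of 0.08, or -0.02 after centring. The angiopoietin receptor gene Tek gave 7.92 in wild type and 7.44 in the double knockout, Eng, the endoglin gene, 9.14 and 9.50, Emcn 8.68 and 8.99, Egfl7 8.39 and 8.67, and the vascular cadherin gene Cdh5 9.86 and 9.94. The Schwann cell and neural crest list had 7 measured of 12, 0 at least 2-fold apart and a median of 0.05, or -0.05 after centring. Among them were Sox10 (6.44 and 6.86), Mbp (6.40 and 6.92), Fabp7 (8.62 and 9.07) and Erbb3 (8.17 and 7.91). The part of either cell type in the Nes signal that remained was not tested.

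**Figure D4:**
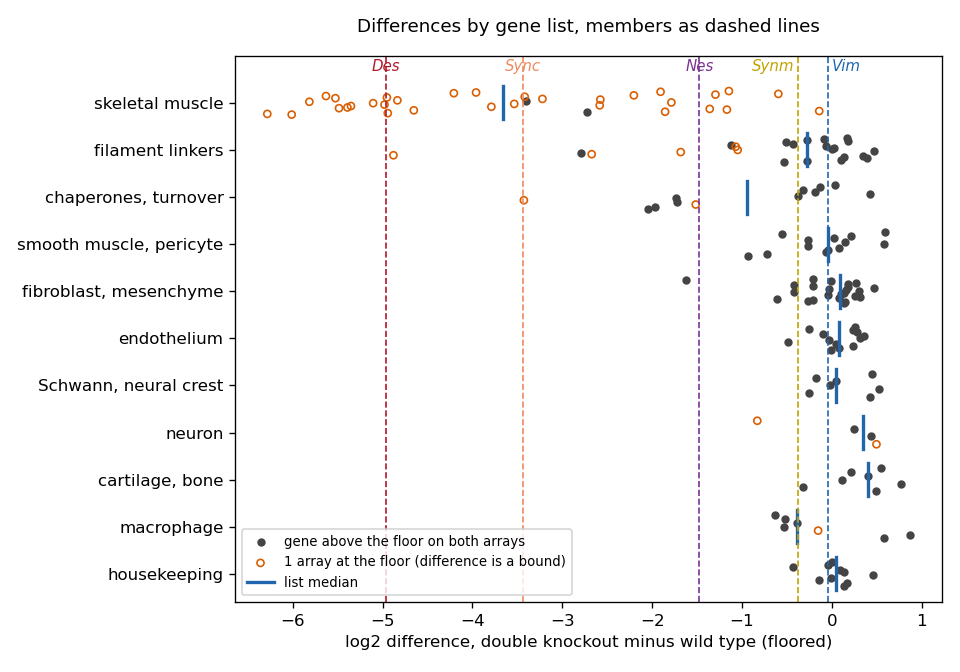
Log2 differences, double knockout minus wild type (horizontal axis), of the measured genes of 11 lists (rows); filled points are genes above the floor on both arrays, open points are bounds with 1 array at the floor, blue bars are list medians, and dashed lines mark the 5 members. The dashed lines run through every row. The Des and Sync lines fall within the range of the skeletal muscle list, whose median is -3.66 and largely set by bounds. Neb of the linkers (a bound of -4.88) lies close to the Des line, and Hspb7 of the chaperones (a bound of -3.43) close to the Sync line. The Vim line runs close to the medians of several lists. These are smooth muscle (-0.04), Schwann cell (0.05), housekeeping (0.05), endothelium (0.08) and fibroblast (0.09).

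Housekeeping genes, 10 measured of 12, had a median of 0.05 (-0.05 after centring), with the brightest, Eef1a1, at 12.77 on both arrays and Actb at 12.61 and 12.75. The widest of the list, beyond the SD between probe sets, were Gusb (8.30 in wild type and 8.76 in the double knockout, 0.46) and Sdha (10.33 and 9.90, -0.43). The fold of a gene that is near the floor in the double knockout is limited by the floor: with the floor at the 75th percentile Des was bounded at -3.51 and Des minus Vim at -3.47.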

How the data were processed

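Per the labels' protocols, total RNA (6 µg) was made into biotinylated cRNA and hybridised to Affymetrix arrays, 1 per genotype. The authors deposited a log2 signal for each of 35557 probe sets. That the base is 2 was read from the range, 1.42 to 13.35. The submitters' processing notes name MAS5; the logarithm step, normalization and build are not given in the sources used here. No columns of other samples were present.

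Gene names came from GEO's platform annotation: 21789 probe sets named 1 gene, 1621 several and 12147 none, and those with several or none were not used. By Entrez identifier 19856 of 19938 genes matched RefSeq's GRCm38.p6 table, and 0 symbols changed. Of several probe sets of a gene, the one brightest on average (linear scale) was used. Values were compared as deposited. Genes at least 2-fold apart were counted. Lists were matched by symbol, and a list is described by its counts and median, with no test.

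The members and the lists were chosen with earlier results of these data known. Named genes are all members, the targeted, other type III and IV and lamin genes, and of each other list the 4 widest differences and the 2 brightest genes, or fewer where the text needs fewer; others are said to have been named after their values were seen. Scripts (Python 3.11.15, pandas 2.3.3, numpy 2.4.6) were tested on simulated data. Alternatives were both other scalings, other floors, the median over probe sets and other fold thresholds. Precision is limited by having 1 array per genotype.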

Additional observations from a re-analysis of the deposited data

How the results depend on the processing

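The number of members at least 2-fold lower was 3 and the number at least 2-fold higher 0 under each scaling, each floor and the median over probe sets; at a 3-fold threshold 2 were lower. None of the 5 differences changed sign under any of these settings. Member differences that moved by more than the SD between probe sets (0.23) were set by the floor. With the floor at the 25th percentile, at the median of all probe sets (an alternative chosen after seeing the data) or with no floor, Synm differed by -0.93 and Sync by -3.68. With the floor at the 75th percentile Des differed by -3.51, Sync by -1.85 and Des minus Vim was -3.47, all of them bounds, and Synm was not measured. Over all genes that higher floor left 134 at least 2-fold lower and 20 higher of 5131 measured. With no floor 431 of 19938 were lower, so the number of genes counted changed too. Of the 10393 genes measured with the main floor, 531 were lower and 319 higher at 1.5-fold, and 161 lower and 18 higher at 3-fold. Of 104 list medians under other settings, 93 stayed within that SD. The skeletal muscle median ranged from -5.30 (no floor) to -3.15 (75th percentile floor), and the chaperone median of -0.95 was -0.38 with no floor and -0.61 with the added floor. At the 75th percentile floor the macrophage median turned from -0.39 to 0.24 and the lamin median from -0.07 to 0.13. No paired analysis was possible because each genotype has 1 array. Depth is not defined for arrays; signal over the floor limits Synm and the remaining Des signal.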
